A study of Mus musculus with 72 samples.

Results

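The effect of the microbiota on the wild-type liver at zeitgeber time 18 (ZT18, hours from lights on, the middle of the dark phase) was read from 6 of the 72 liver RNA-Seq libraries of the study. The members were fixed by the labels alone, as the 3 libraries of germ-free (GF) and the 3 of specific pathogen-free (SPF) WT mice at ZT18. All 6 came from male C57BL/6 mice that were Bmal1 fl/fl, with loxP sites around the clock gene Bmal1 (listed as Arntl) but without Albumin-Cre, so the term WT here means a floxed, undeleted liver in both groups. SPF mice kept their gut microbes, whereas GF mice descended from rederived animals and lived in flexible film isolators under a 12:12 light/dark cycle, so housing and microbial status cannot be told apart. Mice entered individual housing at 10 to 14 weeks of age. In LKO mice Albumin-Cre removes Bmal1 in liver cells. Their libraries of the same ZT and the WT libraries of the other 5 ZT are used to place the 6 libraries. In the main fit the LKO libraries also add to the estimate of the spread. Nothing in the labels ties a replicate number to a litter or a day, and p-values measure the spread between the libraries fitted.

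Gut bacteria reach the liver through the portal blood and the bile acid cycle. They deconjugate and convert the bile acids that the liver makes from cholesterol, and the secondary bile acids formed in this way are ligands of nuclear receptors such as PXR in hepatocytes. Cholesterol synthesis is set by the SREBP2 transcription factor, which is held back by sterols in the endoplasmic reticulum and is released when they are scarce. Cytochromes P450 of the CYP3A family oxidize drugs and bile acids and are classical PXR targets. In mice, which are nocturnal, ZT18 falls within the active, feeding phase.

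The 6 libraries held 18083578 to 19741898 counts each and no pair held identical values. Hepatocyte markers made 108987 to 128030 CPM (counts scaled to the effective library size) in SPF WT and 123109 to 131709 CPM in GF WT libraries. Summed Kupffer cell and macrophage markers overlapped (302.5 to 399.3 and 309.7 to 373.6 CPM). Pancreas markers summed to 22.3 to 33.3 CPM in SPF and 36.1 to 41.8 CPM in GF libraries, without overlap. Of these 6 markers, 4 had no count in any of the 6 libraries, and 0 were called. The sums of 3 further marker lists did not overlap either, and the gap in each came mainly from a single gene. T and NK cell markers summed to 4.05 to 6.08 CPM in SPF and 8.26 to 10.5 CPM in GF libraries, and without Cd4 to 1.8 to 3.26 and 1.84 to 3.49 CPM. B and plasma cell markers (5.55 to 9.58 against 11 to 21.7 CPM) were mostly Ighm, which had 2.19 to 6.13 against 8.04 to 18.5 CPM and was not called. Cholangiocyte markers (53.1 to 96.1 against 35.2 to 46.3 CPM) were mostly Spp1, at 45 to 84.4 against 29 to 40.9 CPM. Epcam (1.55 to 2.25 against 0.914 to 1.1 CPM) and Krt19 (1.76 to 2.52 against 0.918 to 1.74 CPM) were also lower in GF without overlap. Krt7 and Sox9 overlapped, and 0 cholangiocyte markers were called. In whole tissue, fewer cells of a type and less RNA per cell cannot be told apart. Replicate 3 of both groups stood apart from its partners in Per1, a clock gene that also responds to hormones, with 5.2 CPM in SPF and 6.33 in GF against 27 to 39 CPM in the other 4 libraries, and Pck1, the rate-setting enzyme of gluconeogenesis, was also low in both (443.8 and 608.8 against 2549 to 3249 CPM). Fits without replicate 3 of either or both groups are given below. They also hold fewer samples, and the part of these differences in the results was not tested.

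Of 13547 genes tested, 249 (1.84%) passed an adjusted p of 0.05 (quasi-likelihood test of edgeR, adjusted by Benjamini and Hochberg over all genes). More genes rose than fell in GF WT, with 185 higher (1.37% of those tested) and 64 lower (0.472%), and 68 of the 249 changed by at least 1 on the log2 scale. The median absolute log2 fold change of the called genes was 0.65, and the median over all genes was -0.02. An unadjusted p under 0.05 (edgeR) was found for 2588 of the 13547 genes, and list counts at that limit below are to be read beside this share. In all 249 the 3 GF and 3 SPF values did not overlap, which held for 24.3% of all genes tested. The number of calls rested on single libraries. It was 36 without SPF WT replicate 1, 60 without SPF WT replicate 2, 231 without SPF WT replicate 3, 20 without GF WT replicate 1, 91 without GF WT replicate 2 and 40 without GF WT replicate 3. It was 86 without replicate 3 of both groups and 152 when the 6 libraries were fitted without the LKO libraries, yet at least 247 of the 249 genes kept their sign in every one of these fits. Among 59 called genes named here or chosen by the same rule, 10 stayed called whichever library was left out, namely Cyp3a11, Cyp3a25, Cyp3a59, Csad, Apoa4, Hmgcs1, Msmo1, Pmvk, Acss2 and Cav1.

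**Figure D1:**
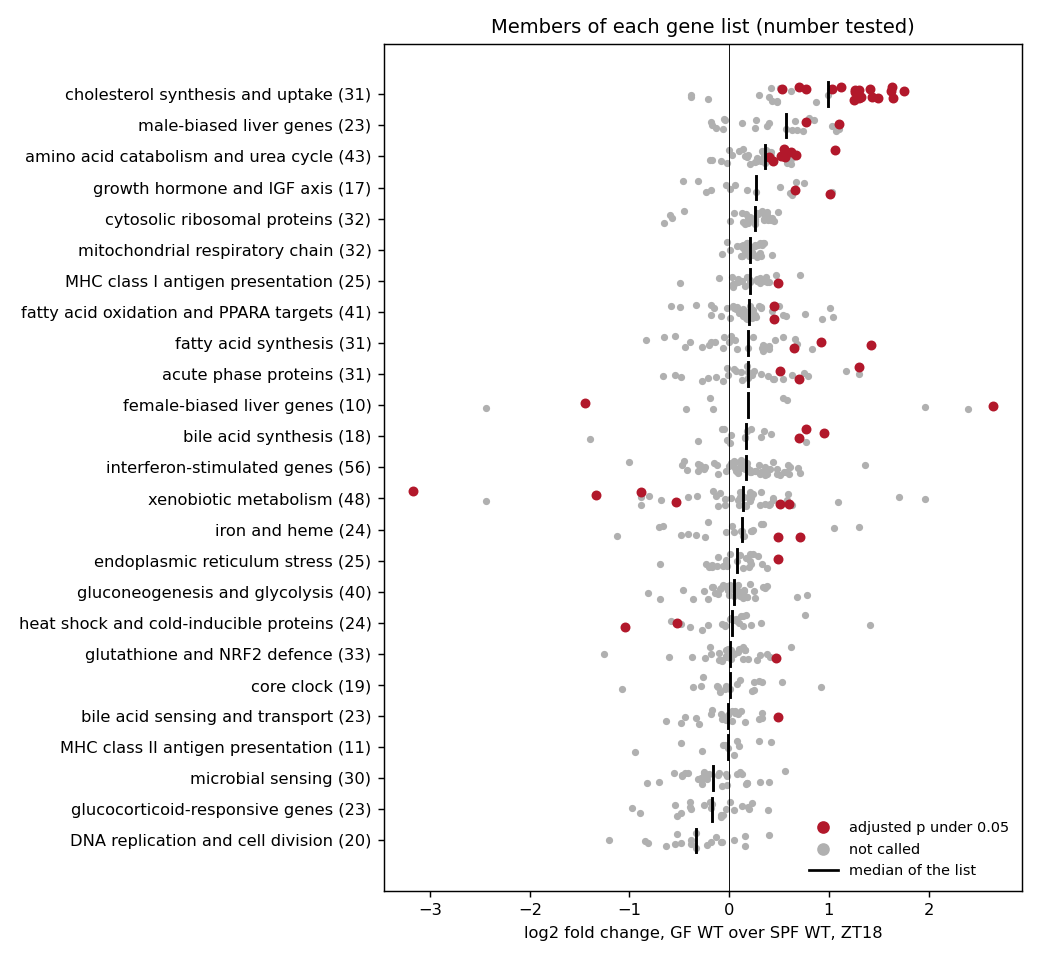
Log2 fold change (x axis, GF WT over SPF WT at ZT18) of every tested member of 25 gene lists (y axis, number tested in parentheses), with called genes in red, other genes in grey and the median of each list as a black bar. Cholesterol synthesis and uptake has the highest median, 0.99, with 18 of 31 members called, and the lowest single value is that of Cyp3a11, -3.17, in the xenobiotic list.

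Genes of cholesterol synthesis and uptake were higher in GF WT livers along the whole pathway. Of 31 members tested, 18 rose (58.1%, against 1.37% of all genes that rose) and 0 fell, and 28 had a positive log2 fold change, with a median of 0.99. The called members ran from the first steps to the last reductions of the sterol ring, with fold changes between 1.45 and 3.37. Hmgcs1, which makes HMG-CoA from acetyl-CoA units, had 235.9, 190.8 and 335.5 CPM in SPF WT and 908.2, 903.5 and 753.6 CPM in GF WT libraries. The groups were far apart, and the gene rose 3.37-fold (log2 fold change 1.75 ± 0.24 SE, adjusted p = 0.00665, n = 3 and 3, edgeR).

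The stretch of 250 bases before the transcription start of Hmgcs1 and of 3 other called members is shown because the genes rose together and SREBP2 is known to act on such stretches beside the factor NF-Y. Matches were searched on both strands, TCACNCCAC for SREBP and CCAAT for NF-Y, which do not share letters, and matches are in capitals. The sequences are 5′ to 3′ on the strand of the gene, from RefSeq on GRCm38.p6, at chr13:119690101-119690350 (plus strand) for Hmgcs1, chr5:114444019-114444268 (plus) for Mvk, chrX:72918271-72918520 (plus) for Nsdhl and chrX:8193513-8193762 (minus) for Ebp.
Hmgcs1: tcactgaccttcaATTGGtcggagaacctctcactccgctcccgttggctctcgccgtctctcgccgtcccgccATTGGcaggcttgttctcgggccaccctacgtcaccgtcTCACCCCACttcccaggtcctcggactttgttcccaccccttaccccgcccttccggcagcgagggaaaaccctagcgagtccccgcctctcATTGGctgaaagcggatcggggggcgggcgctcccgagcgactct
Mvk: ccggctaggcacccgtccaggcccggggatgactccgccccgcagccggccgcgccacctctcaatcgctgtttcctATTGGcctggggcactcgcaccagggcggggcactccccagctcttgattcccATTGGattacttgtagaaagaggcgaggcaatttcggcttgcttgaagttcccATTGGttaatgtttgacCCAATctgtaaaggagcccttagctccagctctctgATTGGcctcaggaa
Nsdhl: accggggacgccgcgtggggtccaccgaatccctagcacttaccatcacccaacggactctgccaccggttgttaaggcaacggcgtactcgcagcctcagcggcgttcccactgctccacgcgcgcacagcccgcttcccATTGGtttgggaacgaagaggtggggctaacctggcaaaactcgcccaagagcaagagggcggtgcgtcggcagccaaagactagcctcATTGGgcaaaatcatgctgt
Ebp: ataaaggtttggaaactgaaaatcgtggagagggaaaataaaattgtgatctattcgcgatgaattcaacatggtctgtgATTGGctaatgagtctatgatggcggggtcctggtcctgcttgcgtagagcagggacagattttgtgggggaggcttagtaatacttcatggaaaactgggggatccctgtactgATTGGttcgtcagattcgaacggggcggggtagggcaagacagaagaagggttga
The SREBP letters were found once, in Hmgcs1, with the first letter 137 bases before the start, and CCAAT was found 3 times in Hmgcs1, 5 times in Mvk and 2 times each in Nsdhl and Ebp. Of the 15 called cholesterol genes with a RefSeq stretch, 13 (86.7%) held CCAAT, as did 7 of the 7 tested members that were not called, against 40.4% of the 10229 tested genes with a stretch. The SREBP letters were in 1 of the 15 (6.67%) and in 1.34% of the tested genes. A match describes letters and does not show binding.

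Further steps of the pathway rose by different amounts. Msmo1, which removes a methyl group of lanosterol products, had 193.7, 132.5 and 264.6 CPM in SPF WT and 683.4, 574.6 and 579.6 CPM in GF WT (log2 fold change 1.64 ± 0.20, adjusted p = 0.00507, edgeR). Pmvk, a kinase of the mevalonate part, had 75.3, 66 and 80.6 CPM against 178.8, 165.6 and 188.5 CPM (1.26 ± 0.17, adjusted p = 0.00665, edgeR). In both genes the lowest GF library was above the highest SPF library by more than the whole SPF range. Sqle, the squalene epoxidase that is the first oxygen-dependent step, had 45.9, 28.2 and 81.8 CPM against 154.9, 153.5 and 172.1 CPM, with tight GF values and a wide SPF spread (1.62 ± 0.36, adjusted p = 0.0416, edgeR). Mvd, which forms isopentenyl diphosphate, averaged 19.7 ± 9.75 (SD, n = 3) CPM against 61 ± 8.2 (SD, n = 3), and Mvk averaged 11.6 ± 1.93 against 32.6 ± 5.68 CPM. Dhcr7, the last reductase of the pathway, averaged 64 ± 21.6 against 171.9 ± 17 CPM. Cyp51, Ebp, Fdft1, Fdps, Idi1, Lss, Hsd17b7, Nsdhl, Tm7sf2, Acat2 and Scap, the last of which escorts SREBP, also rose. SPF replicate 3 was the highest SPF library in 16 of the 18 called members, and SPF replicate 2 the lowest in 16.

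**Figure D2:**
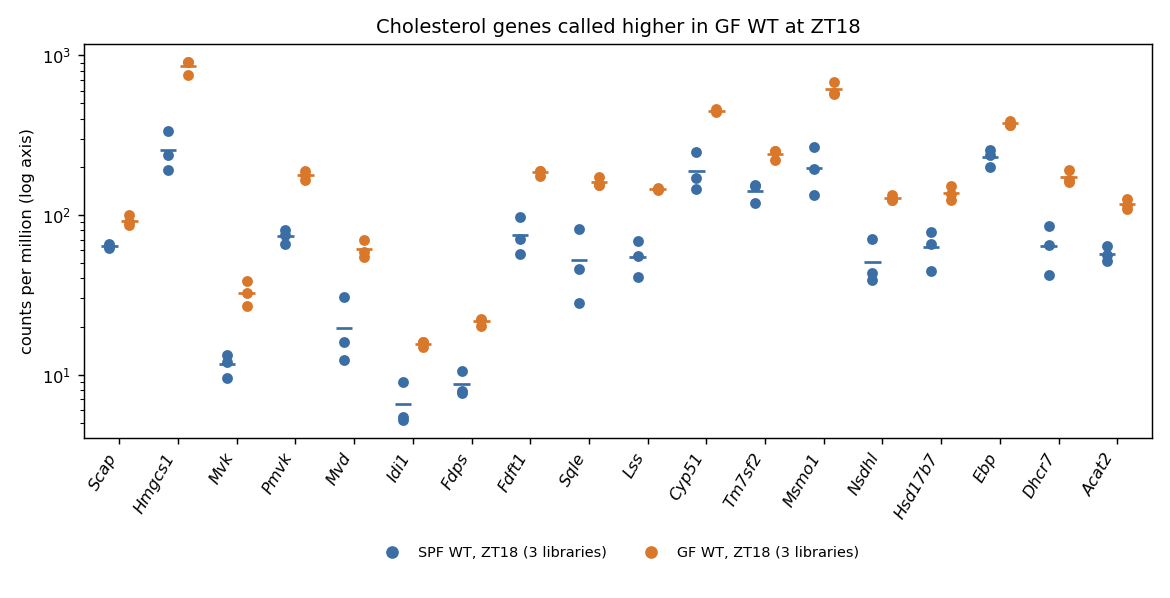
CPM on a log axis for the 18 called cholesterol genes in pathway order (x axis), with 1 point per library for SPF WT (blue, n = 3) and GF WT (orange, n = 3) and a bar at the mean. In each of the 18 genes the lowest GF point lies above the highest SPF point.

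Members that missed the threshold also leaned upward. Sc5d, a desaturase of the last steps, had 808, 623.6 and 966.2 CPM in SPF WT and 1084, 1090 and 1054 CPM in GF WT, without overlap (0.43 ± 0.15, adjusted p = 0.156, edgeR). Insig1, which retains SREBP in the endoplasmic reticulum, had a log2 fold change of 0.51 (adjusted p = 0.22), with overlapping groups. Srebf2, which encodes SREBP2 and was named with its values already seen, had 0.42 (adjusted p = 0.181). The count of called members was 3 without SPF replicate 1, 4 without SPF replicate 2, 20 without SPF replicate 3, 3 without GF replicate 1, 8 without GF replicate 2 and 3 without GF replicate 3, while 28 members had a positive value in every one of these fits and the median stayed between 0.89 and 1.11. Without replicate 3 of both groups 16 were called.

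Drug-metabolizing genes were led by a fall of Cyp3a11, the main CYP3A enzyme of mouse liver. It had 5157, 6769 and 6546 CPM in SPF WT and 909.3, 565.5 and 581.1 CPM in GF WT libraries. The groups were far apart, with the highest GF library well below the lowest SPF library, and the mean was 8.98-fold lower in GF WT (log2 fold change -3.17 ± 0.23, adjusted p = 8.15e-05, edgeR), the smallest p of all genes. A pair of its neighbours on chromosome 5 fell as well. Cyp3a59 had 32.4, 37.7 and 35.2 CPM against 15.8, 12.6 and 13.1 CPM (-1.34 ± 0.12, adjusted p = 0.000285, edgeR), and Cyp3a25 had 613.5, 755.1 and 582.3 CPM against 397.6, 327.3 and 333.1 CPM (-0.88 ± 0.12, adjusted p = 0.0061, edgeR). The 3 genes lie within 259 kb of GRCm38 (Cyp3a11 at chr5:145854426-145879964, Cyp3a25 at chr5:145977194-146009618, Cyp3a59 at chr5:146079257-146113287). Cyp3a13, at chr5:137892932-137921619 and so outside that stretch, had 307 and 279.8 CPM (-0.13, adjusted p = 0.519). All 3 that fell stayed called whichever library was left out.

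Members of the family are close copies, and only reads that aligned to a single place were counted, so values of the single copies are uncertain. How many reads this affected was not tested. The 250 bases before the start of Cyp3a25 (chr5:146009618-146009867, minus strand) and of Cyp3a59 (chr5:146079008-146079257, plus strand) are shown, from RefSeq on GRCm38.p6, because both genes fell, and capitals in Cyp3a59 mark the 11 bases that differ from Cyp3a25.
Cyp3a25: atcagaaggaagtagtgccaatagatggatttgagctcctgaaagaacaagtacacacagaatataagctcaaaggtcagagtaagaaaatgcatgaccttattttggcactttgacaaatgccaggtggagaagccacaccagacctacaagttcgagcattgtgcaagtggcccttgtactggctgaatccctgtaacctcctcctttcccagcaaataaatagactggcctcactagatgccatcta
Cyp3a59: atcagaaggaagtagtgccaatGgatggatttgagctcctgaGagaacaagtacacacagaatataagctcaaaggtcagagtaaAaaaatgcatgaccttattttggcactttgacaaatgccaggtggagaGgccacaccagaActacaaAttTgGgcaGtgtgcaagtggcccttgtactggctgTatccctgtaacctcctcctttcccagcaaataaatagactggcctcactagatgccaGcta
The stretches are 95.6% identical without gaps. Apart from the last base of each, they lie outside the gene spans given above, and they say nothing about the assignment of reads.

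The rest of the xenobiotic list was mixed. Of 48 members tested, 4 fell and 2 rose (12.5% called, against 1.84% of all genes), with a median log2 fold change of 0.14. Ces2a, a carboxylesterase, fell from 481, 501.7 and 514 CPM to 354.3, 345.3 and 337.6 CPM (-0.53 ± 0.10, adjusted p = 0.0232, edgeR). In the opposite direction, Ces1g, an esterase that acts on lipids, rose from a mean of 376 ± 19.2 (SD, n = 3) to 536.2 ± 26.4 CPM, and Cyp1a2, a target of the aryl hydrocarbon receptor, from 576.8 ± 113.1 to 876.3 ± 79.5 CPM. Of the members with the highest CPM, Cyp2e1 (0.31, adjusted p = 0.162), Cyp2c29 (-0.32, adjusted p = 0.16) and Aldh1a1 (0.16, adjusted p = 0.615) did not pass. The receptors of the pathway did not pass either, with log2 fold changes of 0.21 for Nr1i2 (PXR) and 0.12 for Nr1i3 (CAR). Without SPF replicate 1, GF replicate 1 or GF replicate 3 only Cyp3a11, Cyp3a25 and Cyp3a59 remained called in the list.

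Genes that turn cholesterol into bile acids rose in part. Of 18 tested members of bile acid synthesis, 3 rose and 0 fell (16.7% called, against 1.84% of all genes), and the median log2 fold change was 0.17. Cyp8b1, the sterol 12-hydroxylase that directs synthesis to cholic acid, had 257.9, 294.9 and 227.6 CPM in SPF WT and 610.8, 497 and 402.2 CPM in GF WT (0.95 ± 0.16, adjusted p = 0.018, edgeR). Its groups did not overlap, although GF libraries varied. Cyp2c70, which makes the mouse-specific muricholic acids, averaged 1102 ± 169.5 (SD, n = 3) against 1785 ± 88.3 CPM (0.70 ± 0.14, adjusted p = 0.0281, edgeR), and Cyp7b1, of the alternative pathway, 380.6 ± 62.4 against 647.4 ± 76.9 CPM (0.77 ± 0.16, adjusted p = 0.0347, edgeR). Cyp7a1, the rate-limiting enzyme, had 294.4, 150 and 286.3 CPM against 488.6, 393.3 and 368.6 CPM, without overlap but at an adjusted p of 0.0771 (log2 fold change 0.77 ± 0.21). Cyp39a1, named after its values were seen, went the other way, from a mean of 52.8 to 20.1 CPM (-1.40 ± 0.38, adjusted p = 0.0808, edgeR). In the fit of the 6 WT libraries alone, 3 members of the list rose and 1 fell. The highest-CPM members Scp2, Akr1c6 and Slc27a2 had -0.02, -0.05 and 0.42. Leaving out single libraries left 0 to 2 of the 3 called.

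Bile acids of mice are joined to taurine, and the gene for taurine synthesis fell. Csad, the decarboxylase that forms hypotaurine, had 191.9, 290.7 and 201.7 CPM in SPF WT and 85.3, 85.3 and 67.2 CPM in GF WT libraries. The groups did not overlap and the mean was 2.88-fold lower (-1.52 ± 0.19, adjusted p = 0.00507, edgeR). In the list of bile acid sensing and transport, 1 of 23 members rose and 0 fell (4.35% called, against 1.84% of all genes), and 0 were called whichever of the 6 libraries was left out. That was Slco2b1, an organic anion carrier, at a mean of 107.8 ± 0.522 (SD, n = 3) against 151.4 ± 7.28 CPM. Slc10a1, the main bile acid uptake carrier of hepatocytes, had a log2 fold change of 0.33 (adjusted p = 0.113). Slc10a2, named after its values were seen, went the other way, from a mean of 98.2 to 63.4 CPM (-0.63 ± 0.17, adjusted p = 0.0738, edgeR). The receptor Nr1h4 (FXR) and its target Nr0b2 (SHP) had 0.06 and -0.48 (adjusted p = 0.856 and 0.566).

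Some enzymes that break down amino acids rose in GF WT. Of 43 tested members 8 rose and 0 fell (18.6% called, against 1.84% of all genes), 38 were above 0, and the median log2 fold change was 0.36. Bhmt, which remethylates homocysteine from betaine, had 1002, 702.5 and 598.9 CPM in SPF WT and 2019, 1389 and 1403 CPM in GF WT (1.06 ± 0.19, adjusted p = 0.0232, edgeR). The lowest GF library was above the highest SPF library. Hpd and Fah, a pair of steps of tyrosine breakdown, rose from 1787 ± 79.6 (SD, n = 3) to 2750 ± 183.8 CPM and from 532.6 ± 13.7 to 782.8 ± 43 CPM. Got2, Ahcy, Shmt1 and Prodh also rose, by 0.44, 0.55, 0.40 and 0.52 on the log2 scale. Members with the highest CPM that were not called were Cps1, Mat1a and Tdo2, at 0.37, 0.42 and -0.19.

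Called outside the list were Dmgdh and Sardh, on the route from choline to glycine, and Bhmt2. These 3 genes were named after their values were seen. Bhmt2, a homolog of Bhmt that uses S-methylmethionine, had 277.5, 284.1 and 293 CPM in SPF WT against 520, 471.3 and 464.5 CPM in GF WT (0.77 ± 0.09, adjusted p = 0.00337, edgeR). Dmgdh, the dimethylglycine dehydrogenase, had 525.4, 548.5 and 533.5 CPM against 1031, 994.9 and 847.6 CPM (0.84 ± 0.11, adjusted p = 0.00507, edgeR). Sardh, the sarcosine dehydrogenase of the next step, had 851, 838.3 and 860.3 CPM against 1304, 1275 and 1274 CPM (0.60 ± 0.08, adjusted p = 0.00771, edgeR). SPF libraries of these 3 genes varied little, and the groups did not overlap. The list count depended on single libraries and was 2 without SPF replicate 1, 4 without SPF replicate 2, 5 without SPF replicate 3, 0 without GF replicate 1, 4 without GF replicate 2 and 2 without GF replicate 3.

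Lipid genes outside the sterol pathway changed less as a group. In fatty acid synthesis 3 of 31 members rose and 0 fell (9.68% called, against 1.84% of all genes, median 0.19), and 1 was called without SPF replicate 1, SPF replicate 2, GF replicate 1 or GF replicate 3. Acss2, which makes acetyl-CoA from acetate in the cytosol, had 194.8, 149.2 and 243.3 CPM in SPF WT and 483.4, 582 and 505.8 CPM in GF WT (1.42 ± 0.20, adjusted p = 0.00805, edgeR). Its groups were well apart. Acacb, the mitochondrial acetyl-CoA carboxylase, averaged 96.9 ± 9.98 (SD, n = 3) against 183 ± 24.1 CPM, and Fads2, a desaturase of polyunsaturated fatty acids, 622.5 ± 53.3 against 973.9 ± 79.5 CPM. Scd1, Thrsp and Elovl3, the uncalled members of highest CPM, had -0.27, 0.66 and 0.68. In fatty acid oxidation and PPARA targets 2 of 41 rose and 0 fell (4.88%, against 1.84% of all genes), namely Acaa1a and Acads, both by 0.45. In that list 2 were called without SPF replicate 2 and 0 without any other of the 6 libraries.

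Among the 12 largest decreases were Apoa4 and Abcd2. Apoa4, an apolipoprotein made by intestine and mouse liver, had 31.1, 46.4 and 21.2 CPM in SPF WT and 13, 9.61 and 10.1 CPM in GF WT (-1.60 ± 0.23, adjusted p = 0.0084, edgeR). The groups did not overlap, and SPF values spread widely. Abcd2, a peroxisomal carrier of very long-chain fatty acids, averaged 17.6 ± 2.64 (SD, n = 3) against 6.45 ± 1.07 CPM (-1.45 ± 0.31, adjusted p = 0.0347, edgeR) and lost its call whichever of the 6 libraries was left out.

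Few genes of secreted plasma proteins rose. Of 31 acute phase genes 3 rose and 0 fell (9.68% called, against 1.84% of all genes, median 0.19). In this list 0 were called without SPF replicate 1, SPF replicate 2, GF replicate 1 or GF replicate 3, 2 without GF replicate 2 and 4 without SPF replicate 3. C3, the central complement component, had 4318, 4355 and 4082 CPM in SPF WT and 6861, 6614 and 7215 CPM in GF WT (0.70 ± 0.12, adjusted p = 0.0226, edgeR). The groups did not overlap. Serpina3n, a protease inhibitor, averaged 231.7 ± 12.4 (SD, n = 3) against 329.7 ± 35.1 CPM, and Orm3, an acid glycoprotein gene with close copies, 3.16 ± 0.338 against 7.8 ± 1.09 CPM. Serpina3k, Hpx and Fga, with the highest CPM, had 0.32, 0.12 and 0.07 and did not pass. Of 24 genes of iron and heme, Alad, of heme synthesis, and Trf, which encodes transferrin, rose by 0.49 and 0.71 (8.33% called, against 1.84% of all genes). In this list 0 were called without SPF replicate 1, SPF replicate 2, GF replicate 1 or GF replicate 3.

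Genes of immune recognition showed few or no calls. Of 56 interferon-stimulated genes tested, 0 were called by edgeR (7 at an unadjusted p under 0.05, 1 by DESeq2), with 42 above 0 and a median of 0.17. Of 30 genes that sense microbes, such as receptors for lipopolysaccharide and peptidoglycan, 0 were called by edgeR (2 at an unadjusted p under 0.05, 0 by DESeq2), and 9 were above 0 with a median of -0.16. Pglyrp2, an amidase of peptidoglycan made in liver, had 79, 73.7 and 97.7 CPM in SPF WT and 111.3, 102.9 and 117.3 CPM in GF WT (0.40, adjusted p = 0.114). In MHC class I presentation 1 of 25 was called by edgeR (4%, against 1.84% of all genes) and 3 by DESeq2. In this list 8 had an unadjusted p under 0.05 (edgeR), and 23 were above 0 with a median of 0.21. The member called by edgeR was Calr, an endoplasmic reticulum chaperone, which rose (0.49 ± 0.09, adjusted p = 0.0231, edgeR). In MHC class II 0 of 11 were called by edgeR (0 at an unadjusted p under 0.05, 0 by DESeq2).

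Lymphocyte genes moved in both directions. Cd4, the coreceptor of helper T cells that some macrophages also carry, had 2.83, 2.25 and 2.01 CPM in SPF WT and 7.37, 6.43 and 6.97 CPM in GF WT, without overlap (1.55 ± 0.31, adjusted p = 0.0267, edgeR), and it was the 1 marker called of the 4 T and NK cell markers that passed the filter on low counts, of 9 listed. It lost its call whichever of the 6 libraries was left out, at adjusted p from 0.0602 to 0.0937. Igha, the constant region of immunoglobulin A, was named after its values were seen. It had 1.44, 1.18 and 2.52 CPM in SPF WT, and in GF WT 0 in replicates 1 and 2 and 0.174 CPM in replicate 3, which was 3 reads (adjusted p = 0.0139, edgeR). Ighm, of immunoglobulin M, is given above.

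Genes that differ between male and female liver were looked at because growth hormone pulses set them. Of 23 male-biased genes 2 rose and 0 fell (8.7% called, against 1.84% of all genes), with a median log2 fold change of 0.57. In this list 1 was called without SPF replicate 3 or GF replicate 3 and 0 without any other of the 6 libraries. These were Susd4, a complement regulator with 31.2, 32 and 29.7 CPM in SPF WT and 69.9, 74.2 and 55.3 CPM in GF WT (1.10 ± 0.20, adjusted p = 0.0231, edgeR), and Cyp7b1, given above. Mup3 and Mup20, major urinary proteins of high level, had -0.04 and -0.13. Of 23 female-biased genes 10 passed the filter on low counts, and of these Cyp2c40 rose and Abcd2 fell (20% called, against 1.84% of all genes). Cyp2c40, which has close copies, had 2.62, 0.451 and 0.927 CPM against 3.6, 11.4 and 10.2 CPM (2.65 ± 0.61, adjusted p = 0.0475, edgeR), and the lowest GF library lay only slightly above the highest SPF library. Cyp2c40 lost its call whichever of the 6 libraries was left out, at adjusted p from 0.0573 to 0.131 (edgeR). In the growth hormone and IGF axis 2 of 17 tested members rose and 0 fell (11.8% called, against 1.84% of all genes). Igfbp2 and Igfbp4, which bind IGF in plasma, rose by 1.01 and 0.66, whereas Igf1 and Ghr had 0.27 and 0.06 and did not pass.

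Among the largest changes were genes with no list in common. Moxd1, a copper enzyme related to dopamine beta-hydroxylase, had 0.64, 4.05 and 0.0515 CPM in SPF WT and 66.1, 132.4 and 12.8 CPM in GF WT (5.51 ± 1.19, adjusted p = 0.0353, edgeR). The libraries of each group varied by more than 10-fold, and the log2 fold change ran from 4.68 to 7.68 when single libraries were left out. Moxd1 stayed called in 1 of these 6 fits. Cav1, the coat protein of caveolae, had 4.27, 5.97 and 7.78 CPM against 29.8, 31 and 15.9 CPM (2.09 ± 0.27, adjusted p = 0.0061, edgeR). Gpx6, a glutathione peroxidase, had 1.39, 1.63 and 2.78 CPM against 7.86, 7.77 and 7.61 CPM, with GF libraries nearly equal (1.99 ± 0.32, adjusted p = 0.015, edgeR).

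The decreases of the same rule were Peg3, an imprinted zinc finger gene, at 12.1, 8.84 and 5.36 CPM against 3.23, 2.51 and 2.85 CPM (-1.61 ± 0.26, adjusted p = 0.015, edgeR), and Unc13b, a vesicle priming factor, at 20.4, 24.9 and 11.1 CPM against 6.28, 6.49 and 6.8 CPM (-1.52 ± 0.23, adjusted p = 0.0119, edgeR). In both, GF libraries were close together and SPF libraries were not. Lgals1, a galectin, fell by 1.45 on the log2 scale. Pde4a, a cAMP phosphodiesterase, fell by 1.43. Maoa, the monoamine oxidase A, fell by 1.34. Rps6ka1, a kinase downstream of ERK, and Hapln4, a matrix link protein, both fell by 1.30. Of 24 heat shock and cold-inducible genes 2 fell and 0 rose (8.33% called, against 1.84% of all genes). Hspa4l fell from 83.6 ± 3.2 (SD, n = 3) to 58.4 ± 4.83 CPM and Hspb1 from 8.44 ± 3.12 to 4.06 ± 0.0488 CPM, while Hsp90ab1, Hspa8 and Fkbp4 had 0.12, 0.08 and 0.14. Ndrg2, a gene of high CPM in liver, rose by 0.48. Prdx6, a peroxiredoxin, rose by 0.47 as the 1 called member of 33 in glutathione and NRF2 defence (3.03%, against 1.84% of all genes).

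Other lists of cell state gave few calls. Of 25 genes of endoplasmic reticulum stress only Calr, given above, was called (4%, against 1.84% of all genes). Of 23 glucocorticoid-responsive genes 0 were called by edgeR (0 at an unadjusted p under 0.05, 0 by DESeq2), with a median of -0.17, and of 20 genes of DNA replication and cell division 0 were called by edgeR (3 at an unadjusted p under 0.05, 0 by DESeq2), with a median of -0.33. Genes of the cytosolic ribosome and of the respiratory chain leaned upward without passing, with 28 of 32 and 30 of 32 above 0 at medians of 0.26 and 0.21. By edgeR 0 were called in both lists (10 and 12 at an unadjusted p under 0.05, against 2588 of all 13547 genes), and by DESeq2 1 and 6 were.

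**Figure D3:**
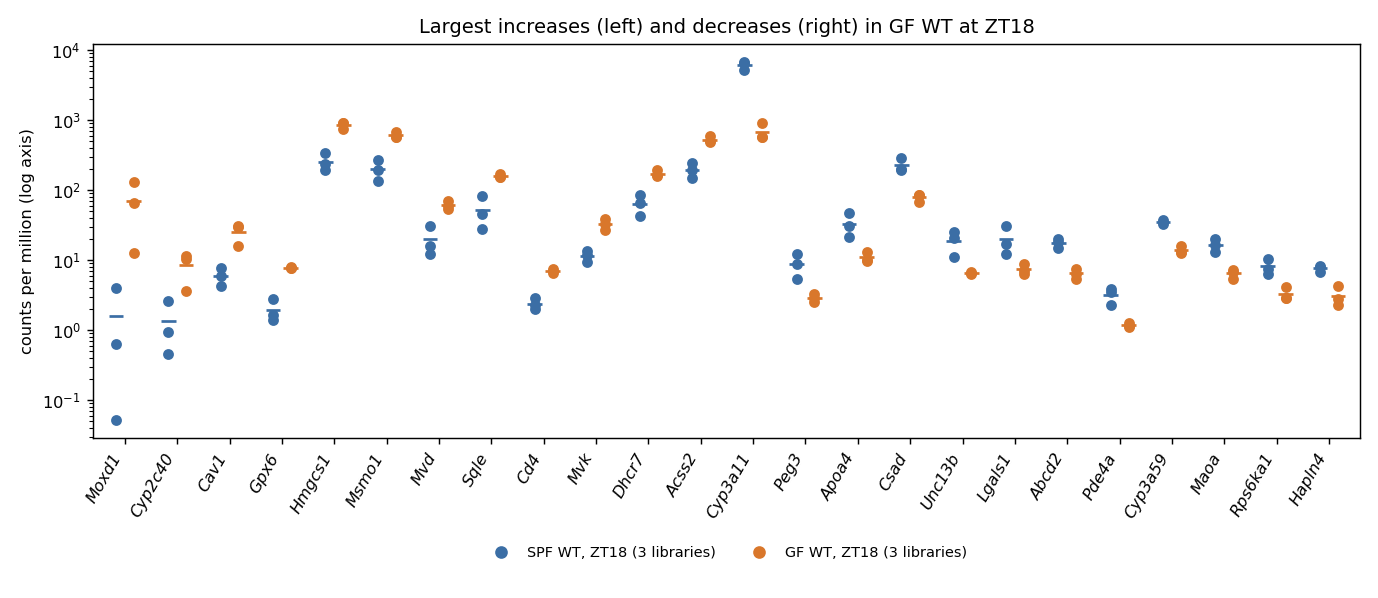
CPM on a log axis for the 12 largest increases (left) and 12 largest decreases (right) among called genes whose log2 CPM averaged 1 or more, with 1 point per library for SPF WT (blue, n = 3) and GF WT (orange, n = 3) and a bar at the mean. Cyp3a11 shows the widest gap among the decreases, and Moxd1 the widest spread within a group.

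The liver clock of these mice was not shown to differ by microbial status at ZT18. Of 19 core clock genes, 0 were called by edgeR (5 at an unadjusted p under 0.05, against 2588 of all 13547 genes) and 1 by DESeq2. The median log2 fold change was 0.01. Arntl had 29.6, 25.6 and 19 CPM in SPF WT and 32.8, 29.7 and 25.8 CPM in GF WT, with overlapping groups (0.25 ± 0.15, adjusted p = 0.401, edgeR). Nfil3, a repressor of the D-box branch, had 33.4, 42.7 and 35.1 CPM against 52.3, 64.6 and 43.3 CPM, just without overlap, and came closest (0.53 ± 0.14, adjusted p = 0.0685, edgeR). Npas2, the partner of Bmal1 that can stand in for Clock, had 2.24, 2.7 and 0.103 CPM against 1.04, 1.04 and 0.29 CPM, and replicate 3 was lowest in both groups.

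The other clock genes were described by their fold changes alone. The activator Clock and the orphan receptor Rora had log2 fold changes of -0.26 and -0.28, and the repressors Nr1d1 and Nr1d2 had 0.23 and -0.36. Per1, Per2, Per3, Cry1 and Cry2, of the negative limb, had 0.01, -0.09, -0.04, 0.30 and 0.33. The output factors Dbp, Tef and Hlf had -0.12, 0.08 and 0.11, and Ciart, Bhlhe40 and Bhlhe41 had -0.11, -0.03 and 0.92. The SE of Bhlhe41 was 0.56, at no more than 1.1 CPM in any library. Of 40 genes of gluconeogenesis and glycolysis, 0 were called by edgeR (7 at an unadjusted p under 0.05, 0 by DESeq2), and Pck1 and Fbp1 had 0.09 and 0.00.

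**Figure D4:**
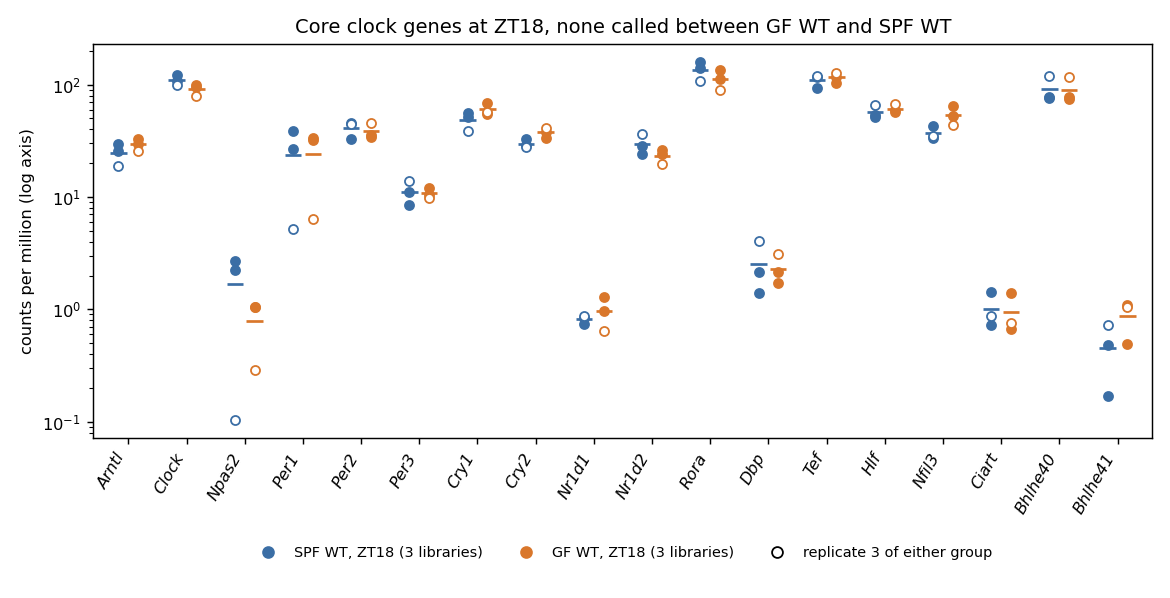
CPM on a log axis for 18 of the 19 core clock genes (x axis) at ZT18 in SPF WT (blue, n = 3) and GF WT (orange, n = 3), with a bar at the mean and replicate 3 of either group as an open point. The groups overlap in most genes, and the open points of Per1 and Npas2 lie below the others in both groups.

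WT mice of the other 5 ZT, which share no library with those of ZT18, served to see whether the calls of ZT18 recur. The 34 WT libraries fitted lacked SPF WT ZT14 replicate 3 and GF WT ZT6 replicate 3. Earlier results of these data had shown both to be unlike their groups in Arntl and along the component that separates microbial states. That choice used the separation of GF from SPF itself, so the counts of recurrence are not independent of it. They were not made with all 36 WT libraries. Of 248 called genes measured throughout, 241 had the same sign at ZT2 (97.2%, against 65.6% of all genes), 230 at ZT6 (92.7% against 63.8%), 222 at ZT10 (89.5% against 61.8%), 236 at ZT14 (95.2% against 63%) and 240 at ZT22 (96.8% against 70.4%). All 5 other ZT had the sign of ZT18 in 191 of the 248 (77%), against 28.8% of all genes. Called with the same sign were 125 at ZT2 (where 10.1% of all genes were called), 53 at ZT6 (1.88%), 68 at ZT10 (2.35%), 63 at ZT14 (1.69%) and 75 at ZT22 (1.95%), and every call of these genes at another ZT had the sign of ZT18. The effect at ZT18 minus the mean effect of the other ZT was called for 0 of 14353 genes by edgeR (1119 at an unadjusted p under 0.05, 0 by DESeq2, smallest adjusted p = 0.462).

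Single members showed how steady the effect was. Cyp3a11 was lower at every ZT and called each time, with log2 fold changes of -2.71, -2.79, -3.25, -2.98 and -3.04 at ZT2, ZT6, ZT10, ZT14 and ZT22. Hmgcs1 was above SPF at every ZT, with log2 fold changes of 2.09, 1.16, 1.70, 2.36 and 1.04 at ZT2, ZT6, ZT10, ZT14 and ZT22, and called at ZT2, ZT10 and ZT14. In the cholesterol list 22, 7, 18, 18 and 11 members rose at these ZT, beside 18 at ZT18, and 0, 0, 0, 1 and 0 fell. Gpx6 and Cav1 were called at all 6 ZT. C3, by contrast, had 0.11, -0.16, 0.59, 0.46 and 0.48 and was called at none of these other ZT, and Hspa4l had -0.04, 0.25, 0.05, 0.12 and 0.15 beside -0.52 at ZT18. The calls of C3 and Hspa4l at ZT18 came from the fit of 11 libraries. In the fit of 34 WT libraries, which gave the values of the other ZT, 0 members of their lists were called at ZT18. The difference between ZT18 and the other ZT did not pass for either, with adjusted p of 0.666 for C3 and 0.612 for Hspa4l (edgeR), so neither was shown to be particular to ZT18.

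**Figure D5:**
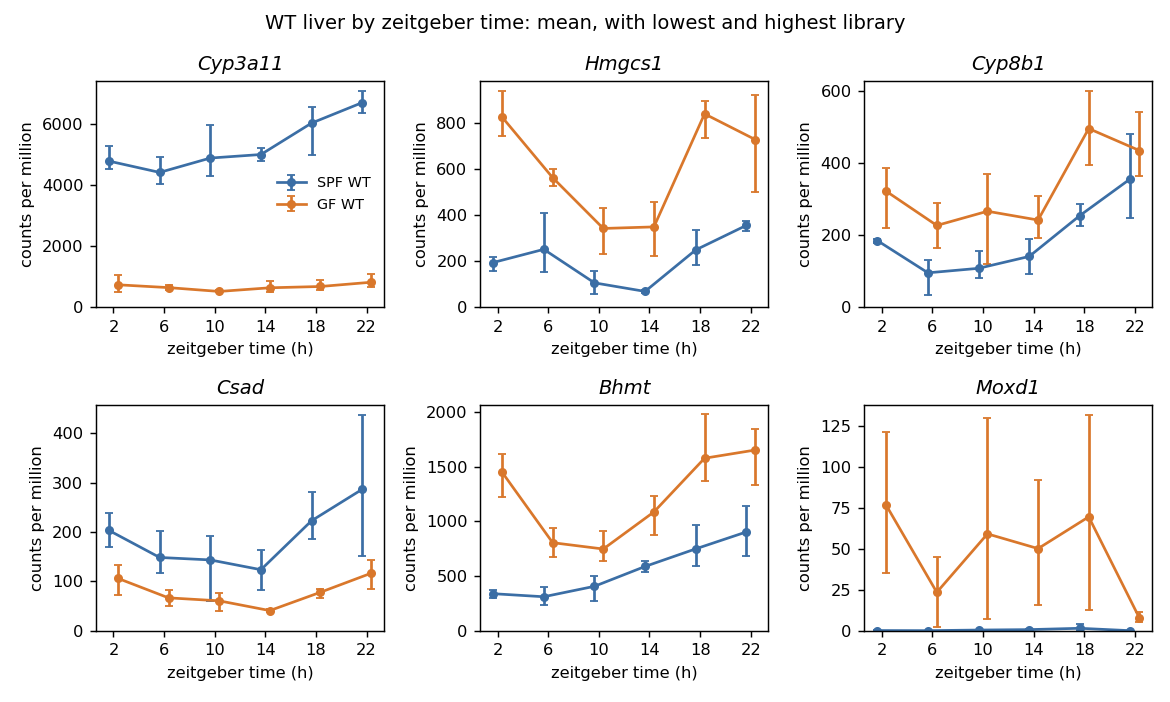
CPM of 6 genes against zeitgeber time (h) in SPF WT (blue) and GF WT (orange) livers, as means with bars from the lowest to the highest library (3 per point, 2 for GF at ZT6 and SPF at ZT14, where 1 library was left out), scaled over 34 WT libraries. GF values of Cyp3a11 stay between 491.5 and 1067 CPM while SPF values stay between 4044 and 7070 CPM.

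LKO mice at ZT18 gave a further set of separate libraries, 2 SPF and 3 GF, after the library labelled SPF LKO replicate 1 was left out because it did not match its genotype label. Npas2, which is high when Bmal1 is lost, was at 36 and 27.1 CPM in SPF LKO and 16.6 to 24.2 CPM in GF LKO, against at most 2.7 CPM in WT. Between GF and SPF, 61 genes (0.45%) were called in LKO, 24 of them also in WT with the same sign, and 236 of the 249 WT calls had the same sign (94.8%, against 65.8% of all genes). Cyp3a11 had -4.84 in LKO (adjusted p of the difference between genotypes 0.273), and Csad -2.26 (0.683). Cholesterol genes had a median of 0.81 with 2 of 31 called, Msmo1 among them (1.58). Gpx6 had -0.11 in LKO beside 1.99 in WT, and C3 0.18 beside 0.70, but the test of the difference did not pass for either (adjusted p = 0.632 and 0.676, edgeR). Over all genes, 0 differences between WT and LKO were called by edgeR (950 at an unadjusted p under 0.05, smallest adjusted p = 0.246) and 23 by DESeq2.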

How the data were processed

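Liver RNA of individual mice was made into stranded poly(A) libraries and sequenced as single-end 50-base reads. The authors aligned reads to mm10 with STAR 2.6.1b and counted them per gene with featureCounts 2.0.0, and the deposited values are raw counts for 55573 genes, of which 22224 held no count in any library. All 72 libraries were run together on the same 6 lanes. Per the file header, the Ensembl 97 annotation was used and strand was ignored, and reads on several genes or places were left out, so values of close copies and of overlapping or antisense genes are uncertain.

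From the deposited counts, 11 libraries of ZT18 (6 WT and 5 LKO) were fitted in edgeR 4.0.16 (R 4.3.3) by the quasi-likelihood test with TMM scaling, after filterByExpr had left 13547 genes. A gene was called at a Benjamini-Hochberg adjusted p under 0.05 over all genes tested. The SE of a log2 fold change is its size divided by the square root of the F statistic. The SPF LKO library left out went against its genotype label in clock genes. The other ZT were fitted over 34 WT libraries with their own scaling, so CPM of the 2 fits differ slightly. DESeq2 1.42.0, RLE scaling, no filter, other sample sets, a replicate block and leaving out each library were the alternatives. The scripts were tested on simulated data. Same-numbered libraries did not all deviate together (r = 0.149, -0.0479 and 0.342 for WT replicates 1, 2 and 3), so numbers were not used to pair mice.

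Named genes were the 12 largest increases and 12 largest decreases among called genes without overlap whose log2 CPM averaged 1 or more, up to 6 called members of each list by p, up to 3 uncalled members of each list by CPM, the clock genes, and up to 6 called genes with the highest CPM. Predicted genes, pseudogenes, Rik clones, Xist and Y-linked genes were not named, and a few genes that the rule names are not reported here. Members, lists and rules were chosen with earlier results of these data known. Sequences came from RefSeq tables on GRCm38.p6, which matched 23 of 32 cholesterol genes. Python 3.11.15 with pandas 2.3.3, numpy 2.4.6 and matplotlib 3.10.9 made summaries and figures.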

Additional observations from a re-analysis of the deposited data

How the results depend on the processing

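The number of genes called between GF WT and SPF WT at ZT18, 249 with 185 higher and 64 lower, depended on the fit. DESeq2 called 615 (471 higher, 144 lower) and edgeR without a filter on low counts called 743 (500 and 243). With all 12 libraries of ZT18 edgeR called 131 (95 and 36), with the 6 WT libraries alone 152 (114 and 38), and with a further limit of 1 on the absolute log2 fold change 68 (43 and 25). Leaving out each replicate in turn gave 20 to 231 genes, 15 to 154 higher and 5 to 77 lower, and leaving out replicate 3 of both groups, an alternative chosen after seeing the data, gave 86 (69 and 17). RLE factors gave 247 and the 34 WT libraries of all ZT 248. With the replicate number as a block, which the labels do not tie to anything shared, 191 genes were called (139 and 52), and 173 of the 249 were among them. The difference between WT and LKO was called for 0 genes by edgeR, 23 by DESeq2 and 122 without a filter, and for 0 to 2 when single libraries were left out, the 2 being without SPF LKO replicate 3. The difference between ZT18 and the other ZT was called for 0 genes, 119 without a filter, and 0 to 1 when single libraries were left out, the 1 being without GF WT replicate 3. With the replicate block both differences gave 0. Of the 59 named genes that were called, 59 stayed called with DESeq2, RLE factors and no filter, 46 with the block, 35 with 12 libraries and 10 to 44 when single libraries were left out. No named called gene changed sign in any of these fits. In the clock list 1 gene was called by DESeq2, and without a filter Npas2 was called too. The cause of these shifts was not tested. Fits that leave libraries out also hold fewer samples, and the part of that in the shifts was not tested either. With 3 libraries a side, small changes and changes of genes at a few CPM may go undetected, and p-values do not cover differences between isolators or cohorts.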

Other observations

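Small increases were also called among genes outside the lists, all of which were named after their values were seen and carry no test as groups. Among vitamin K-dependent and other clotting factors made by hepatocytes, F11 rose from 77.1, 60.4 and 80.5 CPM in SPF WT to 112.3, 111.1 and 111.1 CPM in GF WT (log2 fold change 0.62 ± 0.11, adjusted p = 0.0236, edgeR). F7, F10 and Proz, the last of which encodes protein Z, rose by 0.52, 0.47 and 0.37 on the log2 scale. Parts of the machinery that moves and glycosylates secreted proteins rose as well. Rpn2, Ddost and Dad1, subunits of the oligosaccharyltransferase, rose by 0.53, 0.48 and 0.50, Sec61a1, of the translocation channel, by 0.40, and Lman2, a cargo lectin, by 0.42.

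A few enzymes of the citric acid cycle were among these genes, with no list fixed for the cycle and no count of its members. Cs, the citrate synthase, had 116.2, 114 and 127 CPM in SPF WT and 163, 155.3 and 157.5 CPM in GF WT, without overlap (0.41 ± 0.08, adjusted p = 0.0289, edgeR). Mdh2, the malate dehydrogenase, and Dlst, a subunit of the oxoglutarate dehydrogenase, both rose by 0.45.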
